A study of Drosophila melanogaster with 11 samples.

Results

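The Enhancer of split bHLH repressor genes are the 7 entries of the deposited count table whose symbol starts with E(spl)m and ends in HLH, out of 16034 entries. They are E(spl)mdelta-HLH, E(spl)mgamma-HLH, E(spl)mbeta-HLH, E(spl)m3-HLH, E(spl)m5-HLH, E(spl)m7-HLH and E(spl)m8-HLH, written below without the ending. The older spelling HLHm, which the rule also accepts, matched no further gene. RNA-seq counts were available for wing discs and salivary glands of 3rd instar Drosophila melanogaster larvae kept at 25 C. The groups were wing discs homozygous for the dCap-D3 allele c07081 (2 libraries), w1118 wild-type wing discs (3 libraries), salivary glands of the same mutant (3 libraries) and w1118 wild-type salivary glands (3 libraries). The mutant stock is written as w;dCap-D3c07081/c07081 and w1118 is itself a white mutant, so both genotypes carry a w allele. The c07081 allele is a piggyBac transposon insertion, and its gene encodes a condensin II protein that helps to compact chromosomes. A salivary library was made from 50 pooled tissues and a wing disc library from 150. Separate cultures behind the libraries of 1 group are not stated in the labels, and the p-values below therefore measure the spread between these libraries alone.

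When a cell receives a Notch signal, the cleaved receptor enters the nucleus, joins the DNA-binding protein Su(H) and switches on the E(spl) genes. The bHLH proteins they encode bind DNA as dimers, recruit the co-repressor Groucho and repress proneural genes such as achaete and scute, so that only some cells of a cluster become neural precursors. In the wing disc they act in proneural clusters, along the dorsoventral boundary and beside the future veins. The salivary gland is a secretory tissue of large polytene cells, with a ring of diploid imaginal cells at its base.

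All 7 genes lie on chromosome arm 3R of the BDGP6 build, between 25997621 and 26041008, a span of 43.4 kb. In order along the chromosome, E(spl)mdelta runs from 25997621 to 25998633, E(spl)mgamma from 25999851 to 26000761 and E(spl)mbeta from 26005046 to 26006023. E(spl)m3 runs from 26021823 to 26023127 and E(spl)m5 from 26028854 to 26029735. E(spl)m7 runs from 26037038 to 26038019 and E(spl)m8 from 26040240 to 26041008, with gro, the gene for Groucho, starting 728 bases further on. E(spl)mbeta and E(spl)m5 are on the minus strand and the other 5 on the plus strand. Each is annotated as a single exon block of 769 to 1305 bases, and none overlaps another entry of the table. How reads shared between near-identical genes were counted, and whether strand was used, were not given in the sources used here. A share of reads placed on the wrong family member was not tested.

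The libraries held 52483185 to 157639957 counts, and counts are given below as CPM, counts divided by library size after scaling all 11 libraries together by the trimmed mean of M-values. Cap-D3 served as the check of the labels: it had 1.82 and 1.60 CPM in mutant wing discs, against 8.08 to 17.9 CPM in wild-type wing discs. It had 0.0764 to 0.0977 CPM in mutant salivary glands, against 6.05 to 7.82 CPM in wild-type salivary glands. By edgeR's quasi-likelihood test with Benjamini-Hochberg adjustment its log2 fold change in salivary glands was -6.33 ± 0.22 (SE; adjusted p = 1.43e-04). By the same test it was -2.75 ± 0.38 in wing discs, where Cap-D3 was not called (adjusted p = 0.0916). The 13 salivary gland markers summed to 377000 CPM or more in every salivary library and to 126 to 449 CPM in wing libraries, and nub, a wing pouch marker, had 51.0 to 155 CPM in wing libraries and 0.0244 to 3.93 CPM in salivary libraries. Fat body markers summed to 99000 to 205000 CPM in salivary libraries. Some features touch the results below. Wild-type salivary replicates 1 and 2 held digestive transcripts (8 gut markers summed to 1590 and 15700 CPM), against 6.78 CPM in the third wild-type library and at most 4.92 CPM in the mutants. Wild-type wing replicate 3, numbered 59 where the others are 28 to 31, was the deepest library and favoured long genes. Wing libraries were taken to be directional and salivary libraries not, from a protocol whose number of samples does not match the 11 libraries here. On that reading a difference between tissues and a difference between library kinds cannot be told apart. Whether library kind also varied within a tissue is not known.

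In wing discs E(spl)mbeta, which is expressed beside the future veins, was by far the most abundant of the family. Per kb of exon it averaged 141 ± 3.21 CPM per kb in mutant discs (SD, n = 2) and 107 ± 21.4 CPM per kb in wild-type discs (SD, n = 3), and no library of another member came near it. The next 3 genes, E(spl)m8, E(spl)m3 and E(spl)m7, averaged 35.3 to 43.5 CPM per kb in mutant discs and 28.6 to 30.5 CPM per kb in wild-type discs. E(spl)m7 and E(spl)m8 are known for their expression in proneural clusters. In wild-type discs the ranges of E(spl)m8 and E(spl)m3 overlapped, as did those of E(spl)m3 and E(spl)m7, whereas in mutant discs only the pair E(spl)m3 and E(spl)m7 did so. Below them came E(spl)mdelta, a marker of photoreceptor R4 in the eye disc, with 21.9 ± 0.522 and 17.5 ± 2.43 CPM per kb in mutant and wild-type discs. E(spl)mgamma, a Notch target in neural stem cells, averaged 8.36 ± 0.157 CPM per kb in mutant discs and 6.10 ± 1.02 CPM per kb in wild-type discs, and E(spl)m5 averaged 1.71 ± 0.291 and 1.13 ± 0.243 CPM per kb there. From E(spl)m7 downwards no neighbours in this order overlapped in either genotype.

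In salivary glands the whole family was low and the order was blurred. E(spl)mbeta again came first, with 4.93 ± 3.36 CPM per kb in mutant glands and 7.59 ± 1.89 CPM per kb in wild-type glands (SD, n = 3 each). E(spl)mgamma came second, with 2.12 ± 1.90 CPM per kb in mutant glands and 4.4 ± 1.23 CPM per kb in wild-type glands. E(spl)m5 came last at 0.208 ± 0.248 CPM per kb in mutant glands and 0.475 ± 0.320 CPM per kb in wild-type glands. All neighbours in this order overlapped in both genotypes, with the exception of E(spl)mdelta and E(spl)m5 in wild-type glands.

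**Figure D1:**
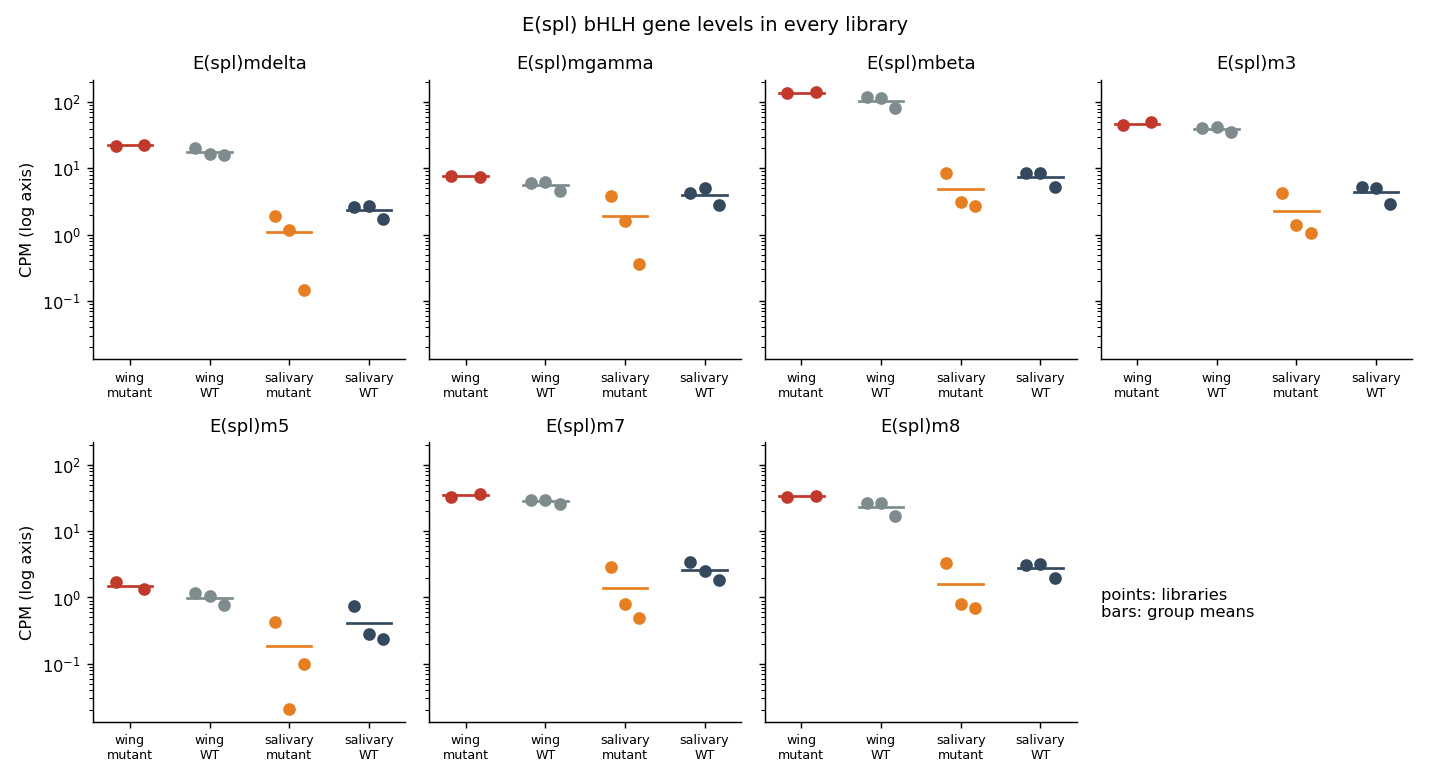
CPM of the 7 genes on a log10 axis, one panel per gene, with a point for each library and a bar for the group mean; mutant libraries stand left of wild-type libraries and wing discs left of salivary glands. E(spl)mbeta reaches 80.7 to 140 CPM in wing discs, and for E(spl)mgamma the salivary points of up to 5.01 CPM reach into the range of the wild-type wing points.

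Of the 7 genes, 5 were higher in wild-type wing discs than in wild-type salivary glands, and E(spl)mgamma and E(spl)m5 were not called. Summed, the 7 genes had 278 and 293 CPM in mutant wing discs and 179 to 243 CPM in wild-type wing discs, against 5.57 to 25.3 CPM in mutant salivary glands and 16.8 to 27.8 CPM in wild-type salivary glands. The mean over the 6 salivary libraries was 7.56% of the mean over the 5 wing libraries. In bulk samples, fewer cells of a type and less RNA per cell cannot be told apart.

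E(spl)mbeta had 118, 116 and 80.7 CPM in wild-type wing discs, against 8.54, 8.44 and 5.29 CPM in wild-type salivary glands. Every wing library was far above every salivary library, and the log2 fold change was 3.82 ± 0.46 (SE; adjusted p = 5.94e-05, edgeR quasi-likelihood test with Benjamini-Hochberg adjustment). Adjusted p-values of the tissue contrasts and the interaction are over 10850 genes, those of the genotype comparisons over 9006 genes in salivary glands and 9689 in wing discs. E(spl)m7 rose by 3.44 ± 0.57 (edgeR adjusted p = 4.61e-04), E(spl)m3 by 3.15 ± 0.49 (adjusted p = 3.07e-04), E(spl)m8 by 3.09 ± 0.56 (adjusted p = 8.09e-04) and E(spl)mdelta by 2.92 ± 0.62 (adjusted p = 0.00213) on the log2 scale. Among all genes tested 42.4% were called higher in wild-type wing discs and 75.1% were called in either direction, so 5 of 7 higher is set against a large background. The members' median log2 fold change was 3.09, against 0.31 over all genes.

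E(spl)mgamma had 5.94, 6.25 and 4.5 CPM in wild-type wing discs, against 4.22, 5.01 and 2.80 CPM in wild-type salivary glands. The ranges overlapped, since the lowest wing library lay below the highest salivary one, and the log2 fold change was 0.47 ± 0.61 (edgeR adjusted p = 0.502). E(spl)m5 had 1.18, 1.05 and 0.763 CPM in wild-type wing discs, against 0.744, 0.277 and 0.235 CPM in wild-type salivary glands. Its groups did not overlap, but its highest salivary library lay close to its lowest wing library and its log2 fold change of 1.25 ± 0.81 was not called (edgeR adjusted p = 0.189).

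These calls depend on how tissues of unlike composition are scaled. With total counts alone, an alternative chosen after seeing the data, the median log2 fold change of all genes was 1.47 and the calls split into 6555 higher and 2214 lower, against 4599 higher and 3550 lower with composition scaling. E(spl)mgamma then rose by 1.62 (edgeR adjusted p = 0.0444) and E(spl)m5 by 2.35 (adjusted p = 0.0306), both less than 1 log2 unit above that median. With edgeR's relative log expression scaling the median was -0.01 and the split 3945 higher and 4055 lower, and the same 5 genes were called.

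In the mutant all 7 genes were called higher in wing discs than in salivary glands, where 38.2% of all genes were called higher and 69.2% in either direction. The log2 fold changes were 4.84 ± 0.50 for E(spl)mbeta, 4.64 ± 0.62 for E(spl)m7, 4.41 ± 0.62 for E(spl)m8, 4.4 ± 0.54 for E(spl)m3 and 4.35 ± 0.69 for E(spl)mdelta. E(spl)m5 rose by 3.05 ± 0.92 (edgeR adjusted p = 0.0148) and E(spl)mgamma by 1.98 ± 0.68 (adjusted p = 0.0264). Both calls rested on single libraries. E(spl)m5 was lost without mutant salivary replicate 3 (adjusted p = 0.0518) or mutant wing replicate 1 (adjusted p = 0.0576), and E(spl)mgamma without mutant salivary replicate 2 (adjusted p = 0.075) or either mutant wing replicate (adjusted p = 0.0776 without the first and 0.0722 without the second). With total counts alone the median of all genes in this comparison was 1.36, with 6086 calls higher and 2062 lower, against 4142 and 3371 with composition scaling.

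The composition of the family therefore differed between the tissues, and the difference can be read within each library, free of scaling. E(spl)mgamma and E(spl)mbeta have nearly the same exon length, 911 and 978 bases. For every 100 counts of E(spl)mbeta, E(spl)mgamma had 5.68 and 5.36 counts in mutant wing discs and 5.02, 5.40 and 5.58 counts in wild-type wing discs. It had 44.1, 52.7 and 13.4 counts in mutant salivary glands and 49.4, 59.4 and 53.0 counts in wild-type salivary glands. Every salivary library was above every wing library, the lowest salivary one being mutant replicate 3. The mean log2 ratio was lower in wing discs by 2.93, the difference, wing minus salivary, being -2.93 (two-sided exact permutation test of 5 wing against 6 salivary libraries, genotypes pooled, p = 0.00433, the smallest this design allows; adjusted over the 6 ratios to E(spl)mbeta, p = 0.013). With each library left out in turn the difference lay between -3.25 and -2.82. This ratio was compared after its values had been seen.

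The other ratios to E(spl)mbeta moved less. The wing minus salivary difference in log2 ratio was -0.51 for E(spl)m8, -0.49 for E(spl)m3, -0.46 for E(spl)mdelta and -0.16 for E(spl)m7. By the same exact permutation test the adjusted p was 0.013 for E(spl)m8, 0.0173 for E(spl)m3, 0.463 for E(spl)mdelta and 0.463 for E(spl)m7. Without mutant salivary replicate 3 the difference was -0.88 for E(spl)mdelta, which then passed (exact permutation test, adjusted p = 0.0119), and -0.30 for E(spl)m7, which did not (0.0635). Without wild-type salivary replicate 1 it was -0.07 for E(spl)m7 (0.77). For E(spl)m5 the difference was -1.76 (exact permutation test, adjusted p = 0.039), a call lost in 10 of the 11 fits without 1 library (adjusted p up to 0.0714) and kept without mutant salivary replicate 2 (0.0159). As a share of the family's counts E(spl)mgamma made up 2.58% on average in wing discs (range 2.44% to 2.78%) and 15% in salivary glands (range 6.58% to 18.3%). E(spl)mbeta made up 47.8% in wing discs and 35.2% in salivary glands.

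**Figure D2:**
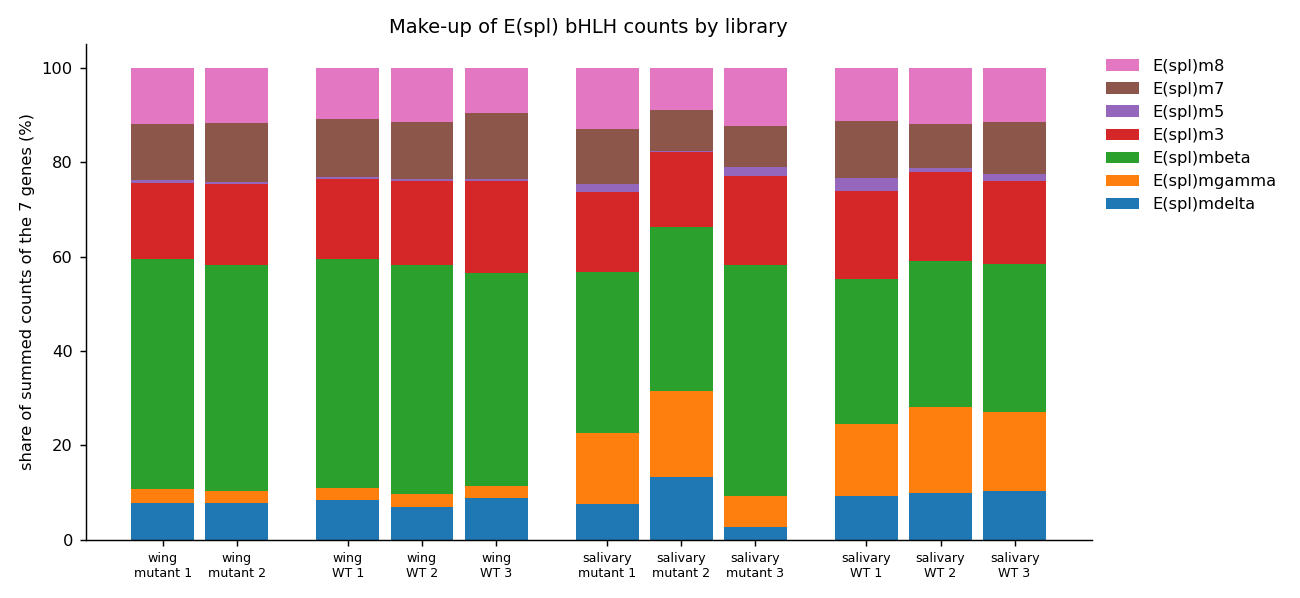
Share of each gene in the summed counts of the 7 genes, in percent, one stacked bar per library running from 0 to 100; mutant libraries stand left of wild-type libraries and wing discs left of salivary glands. The E(spl)mgamma segment is 2.44% to 2.78% of every wing bar and 6.58% to 18.3% of the salivary bars.

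In salivary glands no member was called between genotypes, and all 7 estimates were lower in the mutant by 0.70 to 1.28 log2 units. Mutant replicates 2 and 3 were low and mutant replicate 1 was at wild-type level. Among all genes 10.7% were called and 4.96% were called lower, against 0 of 7 members. At an unadjusted p under 0.05 there were also 0 of 7, against 29.4% of all genes, and the likelihood ratio test of edgeR and DESeq2 called 0 as well.

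E(spl)m3 had 4.30, 1.41 and 1.05 CPM in mutant glands, against 5.24, 5.14 and 2.96 CPM in wild-type glands. Its mutant replicate 1 lay inside the wild-type range and the other 2 mutant libraries lay below it. The log2 fold change was -1.06 ± 0.59 (edgeR adjusted p = 0.286). E(spl)mbeta had 8.61, 3.12 and 2.74 CPM in mutant glands, against 8.54, 8.44 and 5.29 CPM in wild-type glands. Here mutant replicate 1 was the highest of all 6 libraries, the other 2 mutants the lowest, and the log2 fold change was -0.70 ± 0.50 (edgeR adjusted p = 0.397).

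E(spl)mdelta had 1.93, 1.18 and 0.147 CPM in mutant glands, against 2.58, 2.70 and 1.73 CPM in wild-type glands. The groups overlapped through mutant replicate 1 alone, and mutant replicate 3 stood far below the rest with 6 counts (exact Poisson 95% interval 2.2 to 13.1, which covers counting error only). E(spl)mgamma showed the same shape, with 3.79, 1.64 and 0.367 CPM in mutant glands, against 4.22, 5.01 and 2.80 CPM in wild-type glands. Their log2 fold changes were -1.18 ± 0.80 and -1.13 ± 0.76 (edgeR adjusted p = 0.374 and 0.372).

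E(spl)m7 had 2.93, 0.789 and 0.489 CPM in mutant glands, against 3.40, 2.52 and 1.86 CPM in wild-type glands. E(spl)m8 had 3.26, 0.789 and 0.684 CPM in mutant glands, against 3.08, 3.25 and 1.94 CPM in wild-type glands. Both repeated the split among the mutants, and E(spl)m8 was highest in mutant replicate 1. Their log2 fold changes were -0.96 ± 0.71 and -0.88 ± 0.67 (edgeR adjusted p = 0.406 and 0.424). E(spl)m5 had 0.433, 0.0208 and 0.0977 CPM in mutant glands, against 0.744, 0.277 and 0.235 CPM in wild-type glands, and the mutant value of replicate 2 was a single count. Its log2 fold change of -1.28 ± 1.01 was the least precise of the family (edgeR adjusted p = 0.439). For no member were the ranges of the genotypes apart, whereas 15.4% of all genes had the mutant range wholly below the wild-type range.

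Which library was left out decided the outcome. Without mutant replicate 1, 4 genes were called lower in mutant glands by edgeR's quasi-likelihood test, with log2 fold changes of -1.92 for E(spl)m3 (adjusted p = 0.0444), -2.08 for E(spl)m7 (adjusted p = 0.049), -1.97 for E(spl)m8 (adjusted p = 0.0399) and -1.41 for E(spl)mbeta (adjusted p = 0.0495). Without both wild-type libraries that held digestive transcripts, a setting chosen after seeing the data, the estimates lay between -0.66 and -0.12 and none was called. In the authors' deposited table for salivary glands the log2 fold changes of the 7 genes were -1.23 to -0.714, with false discovery rates of 0.0749 to 0.3.

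Markers of disc tissue varied between the same libraries. nub had 1.35, 0.0415 and 0.0244 CPM in mutant glands, against 1.79, 3.93 and 1.62 CPM in wild-type glands. rn, another pouch gene, had 1.58, 0.665 and 0.195 CPM in mutant glands, against 2.18, 3.25 and 2.43 CPM in wild-type glands. In both, mutant replicate 1 was the highest mutant library and lay just below the wild-type range. The 9 wing disc epithelium markers together summed to 75.5, 104 and 84.1 CPM in mutant glands, against 90.7, 90.9 and 106 CPM in wild-type glands, and did not follow that order. Most of that sum came from ap and Dr, and 0 of the 9 were called in salivary glands by edgeR's quasi-likelihood test (4 at an unadjusted p under 0.05, 1 by its likelihood ratio test and 2 by DESeq2), with a median log2 fold change of -1.55. The 8 markers of other imaginal discs summed to 20.9, 9.93 and 5.77 CPM in mutant glands, against 38.3, 47.7 and 25.9 CPM in wild-type glands. All 3 mutant sums lay below the wild-type sums, and 1 of the 8, eya, was called lower (log2 fold change -1.87 ± 0.39, edgeR adjusted p = 0.0348), a call lost whichever single library was left out (adjusted p = 0.0532 to 0.125), without both digestive libraries (0.308) and with no filter on low counts (0.0521). At an unadjusted p under 0.05 there were 5 of the 8, and edgeR's likelihood ratio test and DESeq2 each called 3. Among all genes in salivary glands 10.7% were called and 29.4% had an unadjusted p under 0.05. The likelihood ratio test called 1408 and DESeq2 2091 of the 9006 genes tested. These values for all genes apply to both marker lists. Per 100 CPM of the sum for other imaginal discs the E(spl) bHLH genes had 121, 90.2 and 96.6 CPM in mutant glands, against 72.6, 57.4 and 65.0 in wild-type glands. Other marker lists gave another order. Per 100 CPM of the wing disc epithelium markers the values were 33.4, 8.62 and 6.62 in mutant glands, against 30.6, 30.1 and 15.9 in wild-type glands. Per 100 CPM of disc myoblast markers they were 30.5, 8.08 and 4.37 in mutant glands, against 20.7, 23.3 and 9.37 in wild-type glands. Most of the myoblast sum came from Mef2, with 63.9, 97.2 and 106 CPM in mutant glands, against 110, 101 and 157 CPM in wild-type glands. Mef2 had only 12.8 to 35.9 CPM in wing libraries. Among the mutant glands twi, Him and htl were highest in replicate 1, whereas Mef2 and zfh1 were not. None of the disc markers in these lists was at 0 in every salivary library. The part of disc tissue in the salivary values was not tested.

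**Figure D3:**
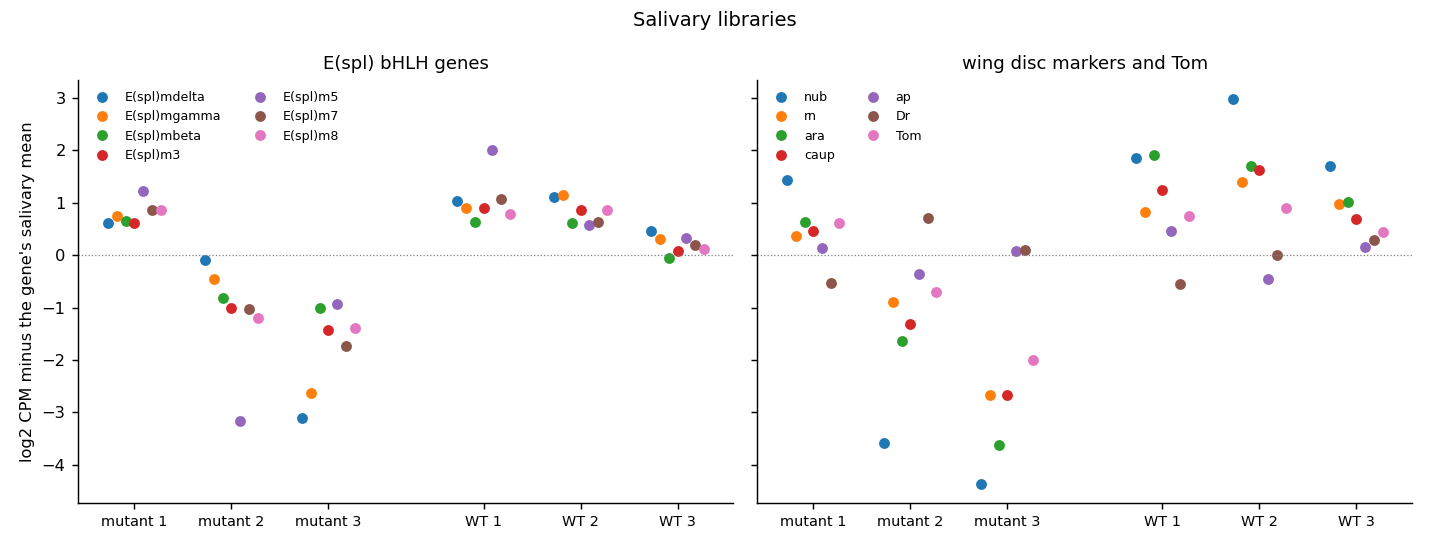
Log2 CPM of each gene in the 6 salivary libraries minus that gene's mean over them, with mutant libraries left of wild-type libraries; the left panel shows the 7 E(spl) bHLH genes and the right panel 6 of the 9 wing disc markers and Tom. E(spl)m3 has 4.30 CPM in mutant replicate 1 and 1.41 and 1.05 CPM in the other mutants, and nub, rn, ara, caup and Tom spread in the same order among the mutants while ap and Dr do not.

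In wing discs all 7 genes were slightly higher in the mutant, by 0.34 to 0.66 log2 units, and none was called. Only 0.475% of all genes were called there, 46 of 9689. Cap-D3 itself was not called in wing discs, so the lack of calls cannot show that the members were unchanged. At an unadjusted p under 0.05 there were 0 of 7 members, against 9.54% of all genes, and the likelihood ratio test of edgeR and DESeq2 called 0 members.

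E(spl)mbeta had 136 and 140 CPM in mutant discs, against 118, 116 and 80.7 CPM in wild-type discs. Both mutant libraries were above all wild-type libraries, wild-type replicate 3 was the lowest, and the log2 fold change was 0.46 ± 0.26 (edgeR adjusted p = 0.812). E(spl)m8 had 32.8 and 34.2 CPM in mutant discs, against 26.5, 27.0 and 16.8 CPM in wild-type discs, again without overlap (log2 fold change 0.58 ± 0.29, adjusted p = 0.746). E(spl)mgamma had 7.72 and 7.51 CPM in mutant discs, against 5.94, 6.25 and 4.5 CPM in wild-type discs (log2 fold change 0.52 ± 0.25, edgeR adjusted p = 0.68).

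E(spl)m7 had 32.9 and 36.4 CPM in mutant discs, against 29.7, 29.1 and 25.5 CPM in wild-type discs, and E(spl)m3 had 44.8 and 50.2 CPM in mutant discs, against 41.3, 42.4 and 34.9 CPM in wild-type discs. E(spl)mdelta had 21.8 and 22.6 CPM in mutant discs, against 20.5, 16.6 and 16.0 CPM in wild-type discs. E(spl)m5 had 1.69 and 1.32 CPM in mutant discs, against 1.18, 1.05 and 0.763 CPM in wild-type discs. None of these groups overlapped, though the gap was small for E(spl)mdelta, E(spl)m3 and E(spl)m5. Their log2 fold changes were 0.37 ± 0.19 for E(spl)m7, 0.34 ± 0.20 for E(spl)m3, 0.40 ± 0.20 for E(spl)mdelta and 0.66 ± 0.37 for E(spl)m5 (edgeR adjusted p = 0.724, 0.876, 0.723 and 0.81).

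All 7 members thus had mutant CPM wholly above wild-type CPM in wing discs, where 10.7% of all genes tested did. The 7 genes vary together between libraries and are not 7 separate observations. Wild-type replicate 3 was the lowest wing library for each of them, as it was for 66.5% of the 1707 tested genes with exon lengths in the members' range of 769 to 1305 bases. In those genes the median log2 deviation from the gene's wing mean was 0.00047 and 0.0079 in the mutants and 0.0541, 0.278 and -0.322 in wild-type replicates 1, 2 and 3. For the mean of the 7 members the same deviations were 0.245 and 0.257 in the mutants and -0.0038, -0.061 and -0.438 in wild-type replicates 1, 2 and 3. In genes with more than 5000 bases of exon, wild-type replicate 3 deviated by 1.06 and replicate 2 by -0.678. Without wild-type replicate 3 the members' estimates were 0.19 to 0.44, none was called, and 7 of 7 still had the mutant range above the wild-type range, where 22.5% of all genes then did. In the same discs muscle markers summed to 51.6 and 48.4 CPM in the mutant, against 102, 172 and 122 CPM in wild type, and hemocyte markers to 52.7 and 39.7 CPM in the mutant, against 80.7, 89.4 and 184 CPM in wild type. Most of the hemocyte sum came from Cg25C and vkg, which have 6165 and 6503 bases of exon. Of the 8 hemocyte markers 1, NimC1, was higher in the mutant, with 1.71 and 1.92 CPM, against 0.222, 0.689 and 0.575 CPM in wild type. The part of length-dependent recovery, muscle and hemocytes in the wing values was not tested. In the authors' deposited table for wing discs the log2 fold changes of the 7 genes were 0.3 to 0.618, with false discovery rates of 0.151 to 0.582.

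**Figure D4:**
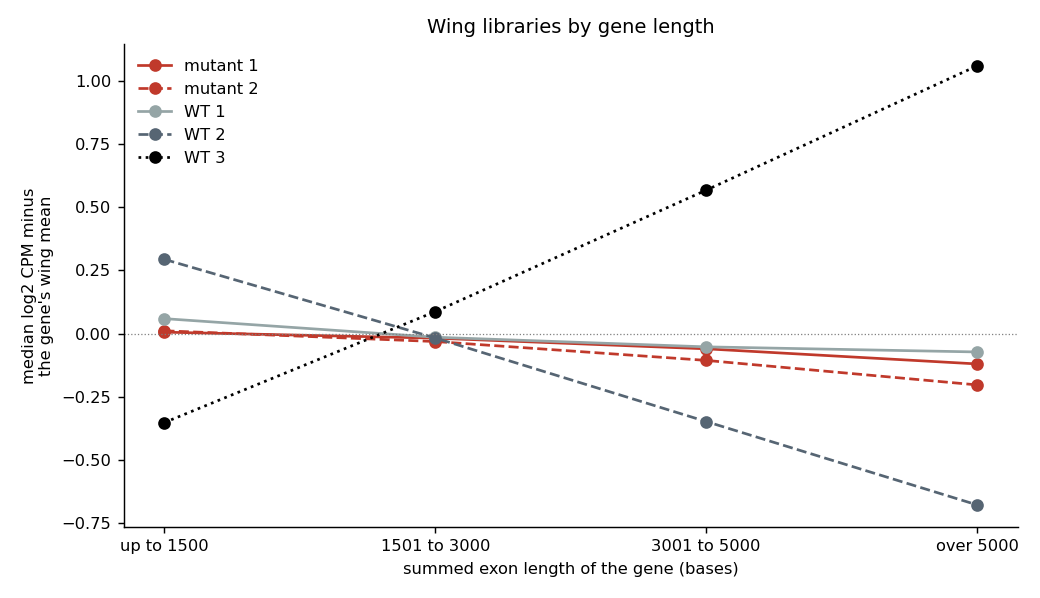
Median log2 CPM of all tested genes minus each gene's wing mean, by class of summed exon length in bases, with a line for each of the 2 mutant and 3 wild-type wing libraries. In genes of up to 1500 bases, where all 7 E(spl) bHLH genes fall, the mutants lie at 0.0058 and 0.0112 and wild-type replicates 1, 2 and 3 at 0.0593, 0.294 and -0.352; over 5000 bases wild-type replicate 3 reaches 1.06.

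The mutant effect in wing discs minus that in salivary glands was positive for all 7 genes, between 1.02 ± 0.61 for E(spl)mbeta and 1.80 ± 1.21 for E(spl)m5 on the log2 scale. None passed the interaction test (edgeR adjusted p = 0.496 to 0.601), where 0.848% of all genes did. At an unadjusted p under 0.05 there were 0 of 7, against 13.0% of all genes, and edgeR's likelihood ratio test and DESeq2 called 0. Opposite signs in the 2 tissues are therefore not shown to differ. Without mutant salivary replicate 1 the difference passed for E(spl)m8 (2.42, edgeR adjusted p = 0.0242), E(spl)m3 (2.12, adjusted p = 0.0286) and E(spl)m7 (2.32, adjusted p = 0.0249).

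**Figure D5:**
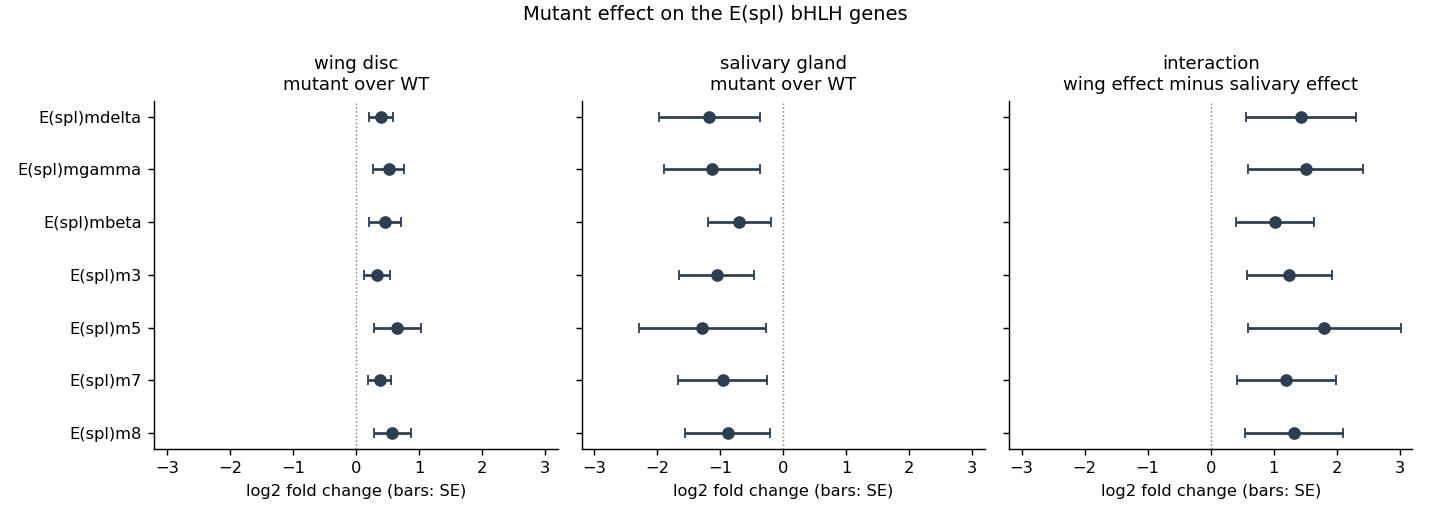
Log2 fold changes of the 7 genes as points with bars of 1 standard error, in panels for mutant over wild type in wing discs, the same in salivary glands, and the wing effect minus the salivary effect. The points lie between 0.34 and 0.66 for wing discs, between -1.28 and -0.70 for salivary glands and between 1.02 and 1.80 for the difference.

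The other 6 genes of the complex include 4 of the Bearded family (BFM), whose small proteins bind the ubiquitin ligase Neuralized and hold back Delta signalling. The 4 BFM genes summed to 244 and 243 CPM in mutant wing discs and 148 to 209 CPM in wild-type wing discs, and to 22.2, 10.3 and 6.33 CPM in mutant salivary glands and 17.5 to 23.1 CPM in wild-type salivary glands. Their salivary mean was 8.03% of their wing mean, close to the 7.56% of the bHLH genes, and mutant salivary replicates 2 and 3 were again the lowest. E(spl)malpha-BFM, the most abundant, had 138 and 140 CPM in mutant wing discs, against 112, 117 and 79.6 CPM in wild-type wing discs (log2 fold change 0.50 ± 0.25, edgeR adjusted p = 0.745). It had 9.95, 4.84 and 3.67 CPM in mutant salivary glands, against 9.26, 9.80 and 8.79 CPM in wild-type salivary glands (log2 fold change -0.66 ± 0.37, adjusted p = 0.29). gro had 47.4 to 50.8 CPM in mutant salivary glands and 42.4 to 50.9 CPM in wild-type salivary glands. Kaz-m1, which lies within the complex and encodes a protein of the Kazal protease inhibitor type, had 0, 0 and 0.0244 CPM in mutant salivary glands, against 3.85, 109 and 0.0785 CPM in wild-type salivary glands, where it followed the digestive transcripts. Of the 6, none was called between genotypes in either tissue (5 and 6 tested in salivary glands and wing discs; 0 and 1 at an unadjusted p under 0.05; 0 by edgeR's likelihood ratio test and by DESeq2). In wild-type wing over salivary tissue 5 rose and Kaz-m1 fell, where 42.4% of all genes were called higher and 75.1% in either direction.

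Upstream of the family, Delta (Dl), a ligand of Notch, fell in mutant salivary glands. It had 3.49, 2.68 and 2.76 CPM in mutant glands, against 7.62, 7.94 and 5.08 CPM in wild-type glands. The groups did not overlap, and unlike the members all 3 mutant libraries were low (log2 fold change -1.28 ± 0.25, edgeR adjusted p = 0.0285). mib1, a ubiquitin ligase that activates the ligands by endocytosis, rose by 0.55 ± 0.10 (adjusted p = 0.0227). The call of Dl was lost without wild-type replicate 1 (adjusted p = 0.0812), wild-type replicate 2 (0.097), mutant replicate 2 (0.121) or mutant replicate 3 (0.135). It was also lost with total counts only (0.0536), in the joint fit of both tissues (0.102) and without both digestive libraries, where the log2 fold change was -0.76 (0.407). The call of mib1 was lost without any 1 library other than mutant replicate 1 (adjusted p = 0.0591 to 0.0908), in the joint fit (0.176) and without both digestive libraries (0.431). These were the calls among 18 ligands, receptor and modifiers in salivary glands, 1 in each direction, where 10.7% of all genes were called. At an unadjusted p under 0.05 there were 6 of the 18, against 29.4% of all genes. edgeR's likelihood ratio test called 4 and DESeq2 called 6, against 1408 and 2091 of the 9006 genes tested. These shares are near those of all genes, so the calls do not set the list apart. In wing discs 0 of the 18 were called (0 at an unadjusted p under 0.05, and 0 by edgeR's likelihood ratio test and by DESeq2). Between wild-type tissues 8 of the 18 rose in wing discs and 3 fell, where 42.4% of all genes were called higher and 75.1% in either direction. Among those that rose were fng, a glycosyltransferase that tunes ligand choice (4.59 ± 0.30, edgeR adjusted p = 2.21e-06), Serrate (Ser, 3.55 ± 0.41, adjusted p = 4.75e-05) and Dl (2.86 ± 0.42, adjusted p = 2.22e-04). These 3 calls held in all 16 alternatives run for that comparison.

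Among 5 nuclear factors and co-repressors, 0 were called between genotypes in either tissue (0 at an unadjusted p under 0.05, and 0 by edgeR's likelihood ratio test and by DESeq2, in each). Su(H) had 4.92 to 5.5 CPM in mutant salivary glands and 5.39 to 6.35 CPM in wild-type salivary glands. It had 14.8 and 14.9 CPM in mutant wing discs and 11.8 to 21.6 CPM in wild-type wing discs. Between wild-type tissues it rose in wing discs by 1.46 ± 0.21 (edgeR adjusted p = 1.77e-04), gro by 1.25 ± 0.28 (adjusted p = 0.00292) and the co-repressor CtBP by 1.23 ± 0.19 (adjusted p = 3.18e-04).

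Of the related bHLH repressors outside the complex, cwo, a repressor of the circadian clock, rose in mutant salivary glands. It had 66.0, 79.2 and 74.6 CPM in mutant glands, against 33.1, 41.3 and 43.3 CPM in wild-type glands, without overlap (log2 fold change 0.84 ± 0.12, edgeR adjusted p = 0.0128). It was the 1 call among 3 tested in salivary glands, and was lost without mutant replicate 2 (adjusted p = 0.0564), without mutant replicate 3 (0.0644), without both digestive libraries (0.243) or in the joint fit (0.147). At an unadjusted p under 0.05 there were 2 of the 3, and edgeR's likelihood ratio test and DESeq2 each called 2. Among all genes in salivary glands 10.7% were called and 29.4% had an unadjusted p under 0.05. hairy (h) had 95.5, 150 and 208 CPM in mutant glands, against 63.9, 73.7 and 82.9 CPM in wild-type glands, and was not called (0.98 ± 0.29, adjusted p = 0.0813). In wing discs 0 of 4 were called (0 at an unadjusted p under 0.05, and 0 by edgeR's likelihood ratio test and by DESeq2). deadpan (dpn), a neural stem cell repressor, was much higher in wild-type wing discs than in wild-type salivary glands (6.12 ± 0.59, adjusted p = 1.60e-05). Her was also called higher there, while h, Side and Hey were called lower. Between wild-type tissues the 6 genes of this list thus gave 2 calls higher and 3 lower, with a median log2 fold change of -0.83. The call of h was lost with total counts only and that of Hey in 9 of 14 alternatives.

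Among proneural and sensory precursor genes, several of which E(spl) proteins repress, atonal (ato), which founds photoreceptors and stretch receptor organs, fell in mutant salivary glands. It had 0.815, 0.581 and 0.269 CPM in mutant glands, against 1.94, 2.67 and 1.78 CPM in wild-type glands, without overlap (log2 fold change -2.01 ± 0.46, edgeR adjusted p = 0.0458). It was the 1 call among 9 tested there, and was lost without any 1 library other than mutant replicate 1 (adjusted p = 0.0908 to 0.167), with no filter on low counts (0.0753), with total counts only (0.0667) and without both digestive libraries (0.472). At an unadjusted p under 0.05 there were 3 of the 9, and edgeR's likelihood ratio test and DESeq2 each called 3. Among all genes in salivary glands 10.7% were called and 29.4% had an unadjusted p under 0.05. At both thresholds the share of the list was near that of all genes, so the call does not set the list apart. achaete (ac) and scute (sc) split like the E(spl) genes among the mutant libraries: ac had 0.815, 0.125 and 0.122 CPM in mutant glands, against 0.844, 0.983 and 0.837 CPM in wild-type glands, and sc had 1.63, 0.312 and 0.293 CPM in mutant glands, against 2.56, 2.55 and 1.05 CPM in wild-type glands. Neither was called. In wing discs ac had 14.6 and 13.2 CPM in the mutant, against 15.9, 14.3 and 12.8 CPM in wild type, with overlap. In wing discs 0 of 12 were called (0 at an unadjusted p under 0.05, and 0 by edgeR's likelihood ratio test and by DESeq2).

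Other genes that respond to Notch were not called between genotypes. Of wg, ct, vg and the others in that list, 0 of 4 tested in salivary glands and 0 of 5 in wing discs were called (1 and 0 at an unadjusted p under 0.05; 0 by edgeR's likelihood ratio test in both, and 1 and 0 by DESeq2). wg, the Wingless ligand of the disc boundary, had 2.65, 1.99 and 1.39 CPM in mutant salivary glands, against 3.5, 3.75 and 3.64 CPM in wild-type salivary glands (log2 fold change -0.92 ± 0.27, edgeR adjusted p = 0.0854). Of the Bearded family genes outside the complex 0 of 3 were called in either tissue (1 in salivary glands and 0 in wing discs at an unadjusted p under 0.05, 0 by edgeR's likelihood ratio test and by DESeq2). All 3 rose in wild-type wing over salivary tissue, where 42.4% of all genes were called higher and 75.1% in either direction. Brd, one of them, had a log2 fold change of 0.24 ± 0.33 in wing discs and of -1.59 ± 0.61 in salivary glands.

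The genes whose pattern over the 11 libraries was most like the mean of the 7 members, once each tissue's mean was taken out, were CG30001, Tmhs, CG18190, babos and Tom. The root-mean-square difference from the members' mean was 0.16, 0.175, 0.18, 0.181 and 0.182 log2 units, against a median of 0.873 over 10843 genes compared. Tom is a Bearded family gene outside the complex. Next, at ranks 6 to 9, came Cdk1 (0.203), CG7675 (0.206), borr (0.21) and Incenp (0.222), so the pattern was not particular to that family. Within the complex E(spl)m4-BFM came 21st (0.255), E(spl)m2-BFM came 45th (0.284) and E(spl)malpha-BFM came 91st (0.347), while gro (0.872) and E(spl)m6-BFM (0.973) were about as far away as the median gene. Among the members themselves E(spl)m7 (0.0914), E(spl)m3 (0.131) and E(spl)m8 (0.159) lay nearest to the mean and E(spl)m5 (0.55) and E(spl)mdelta (0.479) farthest.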

How the data were processed

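RNA-seq counts per gene were taken from the authors' deposited table of raw counts for 11 libraries. HTSeq 0.6.1, Picard 1.119, TopHat2 2.0.8b, BWA, FastQC 0.11.3, Trim Galore 0.3.3 and the build BDGP6 are named in the submitters' processing notes. Per the file headers, the authors' deposited comparison tables hold a p-value, its false discovery rate, the log2 fold change, mean CPM on a log2 scale and a score (the likelihood ratio statistic). Their tool was not given in the sources used here, and their values are quoted only as the authors' own. The deposited counts carry no normalization.

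Counts were tested with edgeR 4.0.16 in R 4.3.3 (quasi-likelihood F-test, robust, legacy dispersions, trimmed mean of M-values) after filterByExpr (minimum count 10, minimum total 15). A gene was called where its adjusted p (Benjamini-Hochberg, over all genes tested) was at most 0.05. Dividing the log2 fold change by the square root of F gave the standard error. Each tissue was fitted alone for genotype. Tissue contrasts and the interaction came from 1 model of 4 groups. The steps were tested on simulated data with less spread between libraries than the real data and with planted changes in well-counted genes only. That check does not show how well changes at low counts are found. No pair of libraries of a group was identical (chi-square per degree of freedom 21 to 1640). A count of 0 allows 3 counts, 0.0122 to 0.0785 CPM. Intervals and floors cover counting error only. Alternatives were edgeR's relative log expression scaling, no filter, edgeR's likelihood ratio test, the Wald test of DESeq2 1.42.0, a joint fit, and single libraries left out. Total counts only, both digestive libraries left out, ratios to E(spl)mbeta, exon length classes and ranges without wild-type wing replicate 3 were added after seeing the data.

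Members and gene lists were chosen with earlier results of these data known. All members are named. Called members of a pathway list were named up to 6 per comparison by adjusted p, otherwise the 2 of highest CPM, and other list genes were added after their values were seen. The 5 genes most like the members were named by rank, and those at ranks 6 to 9 were added after their values were seen.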

Additional observations from a re-analysis of the deposited data

How the results depend on the processing

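The number of members called was 0 in both genotype comparisons, 5 between wild-type tissues and 7 between mutant tissues, and held within 1.5 times of these under every alternative, except when single libraries were left out. Leaving out 1 library gave 0 to 4 calls in salivary glands and 0 to 3 for the interaction, in both cases highest without mutant salivary replicate 1. No log2 fold change of a member reversed its sign under any alternative, including the tissue contrasts, where E(spl)mgamma ranged from 0.15 to 1.62 in wild type. The ratio of E(spl)m5 to E(spl)mbeta kept its sign but lost its call in 10 of the fits without 1 library, and that of E(spl)mdelta gained one without mutant salivary replicate 3. Over all genes the number called moved more: in salivary glands 961, against 2091 with DESeq2, 310 to 1071 without 1 library and 92 without both digestive libraries. In wing discs it was 46, against 464 with edgeR's likelihood ratio test, 583 with DESeq2, 140 with the joint fit and 0 to 45 without 1 library. For the interaction it was 92, against 525 and 612 with those tools and 7 to 262 without 1 library. The causes were not tested. No paired analysis was possible because the replicate numbers were given in accession order and pair no libraries. Fewer than 20 counts stood behind several salivary values, E(spl)m5 above all, and this depth limits what its genotype comparison can show.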
